A study of Homo sapiens with 12 samples.

Results

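CEMIP and the hyaluronan turnover genes are 8 genes that make, supply precursor for or break down hyaluronan, followed here through RNA sequencing of HepG2 cells, a human hepatocellular carcinoma line. They were taken from the deposited table of 62475 genes by symbol: the depolymerase genes CEMIP, CEMIP2, HYAL1, HYAL2 and HYAL3, the synthase genes HAS2 and HAS3, and UGDH, whose enzyme makes a precursor. The set was built around CEMIP because CEMIP was much higher in libraries from cells given H89. The effect of H89 on CEMIP is therefore described without a test, and only the other members and the comparisons between genotypes are tested. A total of 7 of the 8 members were among the 14435 genes that passed a filter on low counts, and HAS2 had 0 counts in all 12 libraries.

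The libraries formed 4 groups of 3 biological replicates: HDAC1_S434A with H89, HDAC1_S434A without H89, WT with H89 and WT without H89. HDAC1_S434A (S434A below) names a serine-to-alanine allele of the histone deacetylase HDAC1, and H89 is an inhibitor of protein kinase A (PKA) that is known to inhibit other kinases as well. The dose and duration of H89, whether the S434A cells were 1 clone, and how the allele was introduced were not stated in the labels. All 4 groups are of the same tumour line, which is no normal hepatocyte.

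Hyaluronan is a long, unsulfated polysaccharide of the matrix, built of glucuronic acid and N-acetylglucosamine. Synthases at the plasma membrane (the HAS enzymes) extrude the chain while they add sugars from UDP-glucuronic acid, which UGDH makes from UDP-glucose, and from UDP-N-acetylglucosamine. The chain is cut outside the cell and at its surface by CEMIP (also called KIAA1199 or HYBID) and by the GPI-anchored HYAL2, and in lysosomes by HYAL1. The membrane protein CEMIP2 (also called TMEM2) is reported to cut it too, which is not settled for the human protein. The name depolymerase genes covers CEMIP2 and HYAL3 by family and not by activity. The exoglycosidases beta-glucuronidase and beta-hexosaminidase complete the breakdown. In the liver, stellate cells are known as the main producers of hyaluronan and sinusoidal endothelium as the site of its clearance, while hepatocytes use UDP-glucuronic acid for glucuronidation as well.

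CEMIP (ENSG00000103888) lies in hg19 on chromosome 15 from 81071684 to 81244117, on the plus strand, and CEMIP2 (ENSG00000135048) on chromosome 9 from 74298282 to 74431606, on the minus strand. The 3 hyaluronidase genes lie close together on the minus strand of chromosome 3: HYAL3 from 50330262 to 50336836, HYAL1 from 50337321 to 50349812 and HYAL2 from 50355221 to 50360213. HAS3 is on chromosome 16 from 69139556 to 69152622 and UGDH on chromosome 4 from 39500375 to 39529931. The 250 bases before the RefSeq start of CEMIP and CEMIP2, the members with the highest log2 fold changes with H89 in WT cells, are printed on each gene's own strand, at chr15:80779120-80779369 (plus) and chr9:71768514-71768763 (minus) of GRCh38.p14. Capitals mark the core of the cAMP response element that CREB, a PKA substrate, is known to bind (TGACG, here on the opposite strand as CGTCA), and the TATA box letters TATAAA.
CEMIP: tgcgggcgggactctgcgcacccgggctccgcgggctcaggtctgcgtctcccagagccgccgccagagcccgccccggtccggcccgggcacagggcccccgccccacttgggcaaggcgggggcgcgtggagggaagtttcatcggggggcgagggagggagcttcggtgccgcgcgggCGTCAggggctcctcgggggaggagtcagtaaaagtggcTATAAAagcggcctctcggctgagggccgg
CEMIP2: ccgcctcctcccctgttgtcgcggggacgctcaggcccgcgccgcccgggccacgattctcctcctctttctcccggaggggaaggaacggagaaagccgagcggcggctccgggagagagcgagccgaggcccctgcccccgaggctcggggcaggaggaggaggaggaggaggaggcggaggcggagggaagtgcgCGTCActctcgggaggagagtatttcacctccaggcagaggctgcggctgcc
The CGTCA of CEMIP begins 69 bases before the start and that of CEMIP2 begins 52 bases before it. CEMIP also holds TATAAA, beginning 30 bases before its start, and CEMIP2 does not. Among 35116 RefSeq promoter windows of this length, 21.2% hold TGACG on either strand and 6.80% hold TATAAA on the gene strand. Neither window holds the full element TGACGTCA or the AP-1 letters TGANTCA, which stand in 1.65% and 6.57% of all windows (both strands). Of the other members, HYAL3 holds TGACG 3 times over its 2 windows, and the windows of HYAL1, HYAL2, HAS3 and UGDH hold none of these letters. Such matches describe the sequence and were not tested as binding sites.

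Total counts per library ran from 17562754 to 37187794. The 3 S434A libraries without H89 stood apart from each other: a chi-square comparison of their counts gave 32.5 to 156 per degree of freedom, against 3.85 to 4.99 in S434A with H89, 5.78 to 9.07 in WT with H89 and 1.62 to 2.03 in WT without H89. Each library's log2 CPM, relative to the gene's mean over the 12 libraries, was set against GC content. Spearman correlations across genes were 0.828, 0.738 and 0.155 in their replicates 1, 2 and 3, against -0.45 to -0.06 in the other 9 libraries. These values depend on each other, as the mean covers all 12. Replicate 3 was smaller in size than the libraries with H89 (-0.45 to -0.22). Results of the members that rest on the S434A libraries without H89 are given as counted and, where the direction or the call can change, again after smoothing out, library by library, how counts ran with GC content and gene length (trend-removed below). All 10 hepatocyte markers were past the filter, with a summed level of 49549 to 50121 CPM in S434A with H89, 45238 to 62667 CPM in S434A, 49132 to 53666 CPM in WT with H89 and 80344 to 80830 CPM in WT. Of 8 fibroblast markers only PDGFRB was past the filter, the list summed to 17.8 to 39.7 CPM, and COL1A2, DCN and THY1 were at 0 in all 12 libraries. Of 8 blood and endothelial markers PECAM1 was not matched to an identifier and 3 of the other 7 were past the filter, those 7 summed to 15.8 to 42.7 CPM, and PTPRC, HBB and KDR were at 0. For both lists the top of the range was in S434A without H89. Mitochondrially encoded genes took 8.27 to 8.57% of counts in S434A with H89, 5.73 to 8.10% in S434A, 7.45 to 8.82% in WT with H89 and 3.83 to 3.91% in WT. The part of these in the results was not tested.

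CEMIP was high in every library with H89, intermediate in S434A without H89 and low in WT without H89. It had 108, 128 and 114 CPM (counts scaled to the library total with TMM factors) in S434A with H89, and 48.4, 50.2 and 30.95 CPM in S434A without H89. It had 129, 119 and 121 CPM in WT with H89, and 12.9, 12.9 and 12.8 CPM in WT without H89. The groups with and without H89 did not overlap in either genotype. In bulk RNA, more cells with a transcript and more transcript per cell cannot be told apart. The log2 fold change with H89 was 1.44 (SE 0.151) in S434A cells, or 2.71-fold, which ranked 1094 among the 14435 genes. In WT cells it was 3.26 (SE 0.163), or 9.57-fold, which ranked 23. These values, and the difference of -1.82 (SE 0.213) between the effects in S434A and WT, are those that chose the gene and carry no test. Trend-removed, the effect was 1.53 in S434A and 2.83 in WT, and the difference -1.30.

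**Figure D1:**
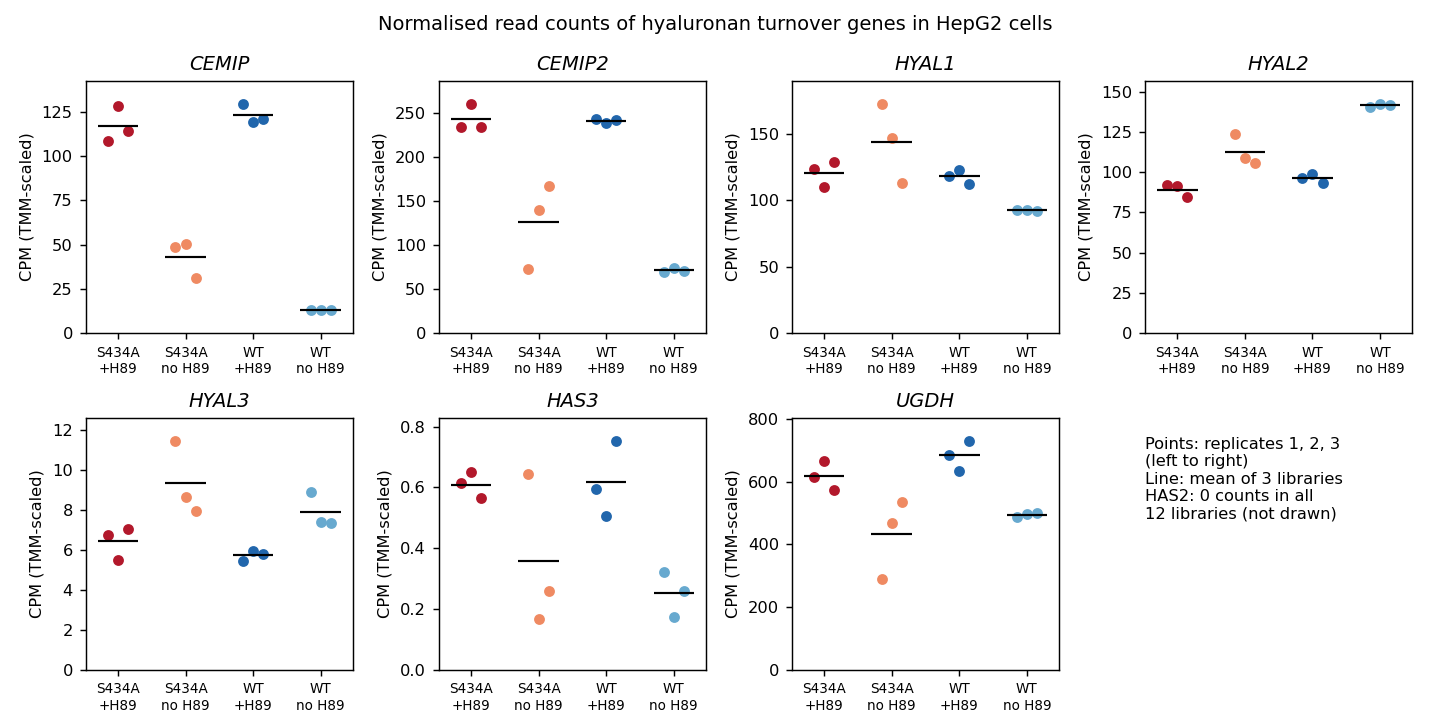
Level of each of the 7 members past the filter in the 12 libraries, in CPM (TMM-scaled) on a linear axis from 0. Points are libraries, replicates 1 to 3 from left to right, and lines are group means (n = 3). CEMIP averaged 117 CPM in S434A with H89, 43.2 CPM in S434A, 123 CPM in WT with H89 and 12.9 CPM in WT, and the 3 S434A libraries without H89 are spread most widely for CEMIP2 and UGDH.

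Without H89, CEMIP was higher in S434A than in WT cells. Its mean was 43.2 ± 10.6 CPM in S434A and 12.9 ± 0.0914 CPM in WT (SD, n = 3 each), with no overlap. By edgeR's quasi-likelihood test it was 3.35-fold higher, with a log2 value of 1.75 (SE 0.156, adjusted p = 4.92e-06), and 1.25 trend-removed (adjusted p = 4.62e-07). It was the only one of the 7 members called (over 2-fold and adjusted p under 0.05), against 11.6% of all genes called higher in S434A. CEMIP2 was called too when only the groups compared were fitted (1.04, adjusted p = 0.0267) or without replicate 1 of S434A (1.101, adjusted p = 4.45e-08). The libraries without H89 of both genotypes enter the selection of the gene too, so for CEMIP this comparison and its p-values are not independent of it.

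With H89 present in both genotypes, CEMIP averaged 117 ± 10.2 CPM in S434A and 123 ± 5.41 CPM in WT (SD, n = 3 each), which on the log2 scale is -0.08 (SE 0.147, adjusted p = 0.9998 by edgeR). The other 6 members had log2 fold changes of -0.14 to 0.17 in this comparison. By edgeR 0 of the 7 members had an unadjusted p under 0.05, and by DESeq2 and limma-voom also 0. Over all genes 0% were called by edgeR, with 589 of 14435 at an unadjusted p under 0.05, and 1 gene was called by DESeq2 and 0 by limma-voom. A difference that misses the threshold does not show that the genotypes are alike. For CEMIP, the libraries with H89 of both genotypes also enter its selection, so this comparison is not independent of it. The SE ran from 0.0681 for HYAL2 to 0.337 for HAS3.

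CEMIP2, the transmembrane relative of CEMIP, was also high in every library with H89. It had 235, 261 and 234 CPM in S434A with H89, and 73.2, 139.7 and 167 CPM in S434A without H89. It had 243, 238 and 242 CPM in WT with H89, and 69.8, 73.9 and 70.7 CPM in WT without H89. The groups with and without H89 did not overlap, and replicate 1 of S434A without H89 lay within the range of the WT libraries without H89. CEMIP2 rose with H89 in S434A cells by 0.94 (log2; SE 0.222, adjusted p = 0.0065), a result that was lost when trend-removed (0.086, adjusted p = 0.253) or when only the groups compared were fitted (adjusted p = 0.0646). In WT cells it rose by 1.76 (SE 0.227, adjusted p = 4.88e-05), or 3.38-fold, and by 0.95 trend-removed (adjusted p = 5.49e-09). Without H89 it was higher in S434A than in WT by 0.83 (SE 0.223, adjusted p = 0.00846; 0.85 trend-removed, adjusted p = 6.31e-08). The difference between the H89 effects in S434A and WT was -0.82 (SE 0.313, adjusted p = 0.0526), and -0.87 trend-removed (adjusted p = 2.71e-06).

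Set against each other per exon length, CEMIP stood at 0.560, 0.597 and 0.594 of the CEMIP2 level in S434A with H89, and at 0.803, 0.436 and 0.225 of it in S434A without H89. The ratio was 0.646, 0.608 and 0.606 in WT with H89, and 0.225, 0.212 and 0.219 in WT without H89. The ratio thus lay in a narrow range in the 6 libraries with H89 and in another, lower one in WT without H89, and it varied widely in S434A without H89.

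**Figure D2:**
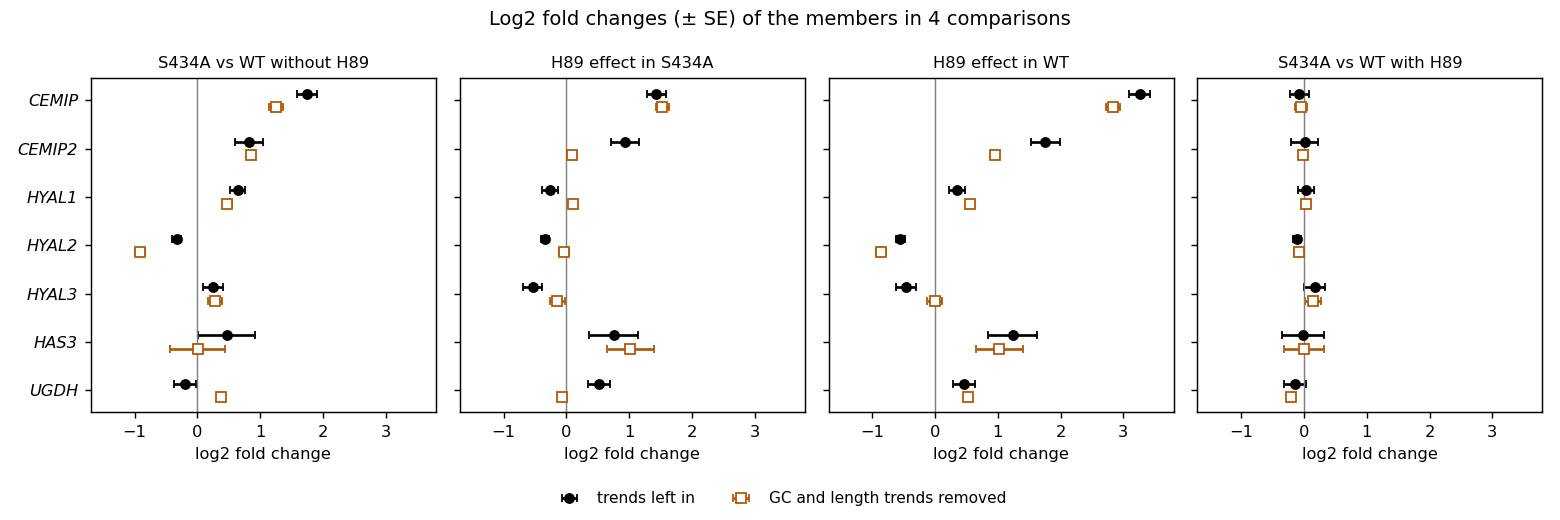
log2 fold change (SE) of the 7 members in 4 comparisons of 2 groups, as counted and with the GC and length trend removed. For H89, CEMIP is at 1.44 in S434A and 3.26 in WT, CEMIP2 at 0.94 in S434A and 1.76 in WT, HYAL2 is below 0 in both as counted, and the 7 genes lie between -0.14 and 0.17 for S434A against WT with H89.

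HYAL2, the hyaluronidase tethered to the cell surface, moved the other way. It had 91.9, 91.1 and 84.5 CPM in S434A with H89, and 123.9, 108.7 and 105.5 CPM in S434A without H89. It had 96.5, 98.9 and 93.5 CPM in WT with H89, and 140.6, 142.4 and 141.9 CPM in WT without H89. Both pairs were without overlap, and so were the S434A and WT libraries without H89. HYAL2 fell with H89 in S434A cells by 0.34 (log2; SE 0.0682, adjusted p = 0.00286), a result that was lost when trend-removed (-0.037, adjusted p = 0.717). In WT cells it fell by 0.56 (SE 0.0682, adjusted p = 2.70e-05), and by 0.87 trend-removed (adjusted p = 1.40e-07). Without H89 it was lower in S434A than in WT (log2 fold change -0.33, SE 0.068, adjusted p = 0.00155; -0.92 trend-removed, adjusted p = 2.25e-07), a result that was lost when only those groups were fitted (-0.12, adjusted p = 0.279). These falls are relative to the library total: on the TPM scale HYAL2 averaged 72.9 in WT with H89 and 72.6 in WT, while the median gene stood 0.76 higher (log2) with H89, and HYAL2 relative to it at -0.75.

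HYAL1, the lysosomal hyaluronidase, had a response to H89 that differed between the genotypes by edgeR as counted. It had 123, 110 and 128 CPM in S434A with H89, and 172, 147 and 113 CPM in S434A without H89. It had 119, 123 and 112 CPM in WT with H89, and 92.5, 92.8 and 92.04 CPM in WT without H89. The WT groups did not overlap and the S434A groups did. Its log2 fold change with H89 was -0.26 in S434A cells (SE 0.125, adjusted p = 0.109; 0.10 trend-removed). In WT cells it rose by 0.35 (SE 0.126, adjusted p = 0.0274; 0.56 trend-removed, adjusted p = 3.63e-06). The rise in WT was not past the threshold with RLE scaling (0.20, adjusted p = 0.155), or in 10 of 12 fits that left out 1 library. The difference between the effects was -0.61 (SE 0.177, adjusted p = 0.0155), and -0.45 trend-removed (adjusted p = 0.00113). Trend-removed, the difference also passed the threshold for CEMIP2, given above, for HYAL2 (0.83, adjusted p = 2.31e-05) and for UGDH (-0.58, adjusted p = 4.18e-05). Without trend removal it passed for HYAL2 with RLE scaling (0.27, adjusted p = 0.0275) and DESeq2 (0.27, adjusted p = 0.0144), and for CEMIP2 with upper-quartile scaling (-0.82, adjusted p = 0.0441) and with a filter of 1 CPM in 3 libraries (-0.82, adjusted p = 0.0485). Leaving out replicate 1 of S434A without H89, it passed for CEMIP2 (-1.09, adjusted p = 1.45e-06) and HYAL2 (0.29, adjusted p = 0.00948). For HYAL2 it also passed without replicate 3 of S434A with H89 (0.28, adjusted p = 0.0476). Without H89, HYAL1 was higher in S434A than in WT by 0.64 (SE 0.126, adjusted p = 0.00114; 0.48 trend-removed, adjusted p = 2.65e-05).

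HYAL3, a hyaluronidase relative that is little studied, was the lowest of the 3 HYAL genes per exon length. It averaged 6.43 ± 0.837 CPM in S434A with H89 and 9.35 ± 1.86 CPM in S434A, and 5.73 ± 0.262 CPM in WT with H89 and 7.87 ± 0.865 CPM in WT (SD, n = 3 each). The libraries with and without H89 did not overlap in either genotype. It fell with H89 by 0.54 in S434A (SE 0.159, adjusted p = 0.0167) and by 0.46 in WT (SE 0.159, adjusted p = 0.0236). Neither result held when trend-removed, with -0.14 in S434A (adjusted p = 0.344) and -0.0045 in WT (adjusted p = 0.974), and the fall in WT was lost without replicate 1 of WT (adjusted p = 0.0941).

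The synthases were at or near 0. HAS2 was not detected, and 3 counts would have been 0.0807 to 0.171 CPM in these libraries. HAS1, the remaining synthase and no member of the set, was also at 0 in all 12. HAS3 had 3 to 16 counts per library. Its levels were 0.614, 0.650 and 0.564 CPM in S434A with H89, and 0.646, 0.166 and 0.260 CPM in S434A. They were 0.594, 0.507 and 0.754 CPM in WT with H89, and 0.321, 0.173 and 0.259 CPM in WT. With H89 its log2 fold change was 0.76 in S434A cells (SE 0.394, adjusted p = 0.129), 1.02 trend-removed (adjusted p = 0.0404), and 1.48 (adjusted p = 0.00844) without replicate 1 of S434A, the high library of its group. HAS3 rose in WT cells by 1.24 (SE 0.387, adjusted p = 0.0145), with no overlap between the groups. That result was lost without replicate 1 or replicate 3 of WT with H89 (adjusted p up to 0.0916).

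UGDH, which supplies UDP-glucuronic acid, was the most abundant member per exon length. It had 616, 667 and 574 CPM in S434A with H89, and 290.0, 469 and 536 CPM in S434A. It had 685, 636 and 731 CPM in WT with H89, and 488, 496 and 502 CPM in WT. The groups with and without H89 did not overlap in either genotype, and replicate 1 of S434A without H89 was the lowest of all 12 libraries. UGDH rose with H89 by 0.52 in S434A cells (SE 0.175, adjusted p = 0.0301) and by 0.47 in WT cells (SE 0.175, adjusted p = 0.0345). Trend-removed, the value in S434A was -0.062 (adjusted p = 0.397) and the rise in WT was 0.52 (adjusted p = 1.46e-06). With RLE scaling neither passed the threshold (adjusted p = 0.072 in S434A and 0.143 in WT). Of 12 fits that left out 1 library, the result was lost in 7 for S434A and in 10 for WT. Without H89, UGDH was not called between S434A and WT (-0.20, adjusted p = 0.361), and trend-removed it was higher in S434A (0.38, adjusted p = 5.41e-05).

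Leaving CEMIP out, 2 of the 6 members tested rose with H89 in S434A cells and 2 fell, beside 29.3% of all genes that rose and 22.7% that fell. All 4 were lost when only the S434A groups were fitted (adjusted p 0.0547 to 0.127). Over all genes, 2743 of 13787 passed in that fit, against 7504 of 14435 in the main fit. In WT cells 4 of the 6 rose and 2 fell, beside 38.8% and 30.9% of all genes. CEMIP2 and HAS3 rose by over 2-fold there, beside 22.2% of all genes. Without H89, 2 of the 6 were higher in S434A and 1 was lower, beside 29% and 29.3%. For the difference of H89 effects, 1 of the 6 passed the threshold by edgeR, beside 48% of all genes, 2 by DESeq2, 1 by limma-voom and 4 when trend-removed. Over all 14435 genes, 6935 passed by edgeR as counted, 7089 by DESeq2, 7130 by limma-voom and 7168 when trend-removed. With shares this high among all genes, the counts of members do not set them apart. The median log2 fold change of the 6 was 0.13 for H89 in S434A, beside 0.014 over all genes, and 0.41 for H89 in WT, beside 0.20. For S434A against WT without H89 it was 0.36, beside -0.04 over all genes. The H89 effect in S434A and the comparison of genotypes without H89 share the S434A libraries, and the H89 effect in WT and that comparison share the WT libraries.

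Some members share exon bases with another gene. Whether the counting used strand is not stated, and how reads on the shared bases were counted was not tested. CEMIP shares 224 exon bases (2.94% of its length) with MESD on the opposite strand, whose own log2 fold change with H89 was 0.011 in S434A and -0.94 in WT. HYAL2 shares 509 bases (11.51%) with TUSC2, whose values were -0.41 in S434A and -0.91 in WT. HYAL3 shares 232 bases (11.8%) with NAA80, whose values were -0.57 in S434A and 0.067 in WT. It shares 43 with IFRD2, at -0.61 in S434A and -0.74 in WT. TUSC2, NAA80 and IFRD2 lie on the same strand as the member they overlap, so strand would not separate reads on those bases. UGDH shares 293 bases (7.28%) with UGDH-AS1, which had 44 to 144 counts and values of -0.44 in S434A and -0.97 in WT. HAS3 shares 365 bases (7.02%) with CHTF8 (1 to 12 counts). HYAL1 and CEMIP2 share none.

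Between genes, levels were compared per exon length as TPM (counts divided by exon length and scaled to the same sum in each library). In both groups with H89 the order was UGDH, HYAL1, CEMIP2, HYAL2, CEMIP, HYAL3, HAS3, HAS2, and no neighbours overlapped. In S434A with H89 the means were 513 TPM for UGDH, 130.4 TPM for HYAL1, 87.6 TPM for CEMIP2, 67.3 TPM for HYAL2, 51.2 TPM for CEMIP, 10.9 TPM for HYAL3 and 0.391 TPM for HAS3. In S434A without H89, CEMIP (17.4 TPM) and HYAL3 (14.5 TPM) overlapped, and HYAL2 (78.1 TPM) stood above CEMIP2 (42.6 TPM). In WT with H89, CEMIP averaged 54.1 TPM, and in WT without H89 it averaged 3.83 TPM, below HYAL3 at 9.07 TPM and above HAS3 alone among the detected members. By its mean CEMIP thus stood above HYAL3 in every group but WT without H89.

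Within the summed TPM of the 5 depolymerase genes, CEMIP made up 13.7 to 16.2% in S434A with H89 and 4.69 to 6.71% in S434A. It made up 14.7 to 15.97% in WT with H89 and 2.24 to 2.25% in WT. HYAL2 made up 18.3 to 20.02% in S434A with H89 and 25.0 to 27.6% in S434A, and 20.5 to 21.0% in WT with H89 and 42.1 to 42.8% in WT. HYAL1 and HYAL2 together held most of the sum in every library, and CEMIP and CEMIP2 took a larger part of it with H89 than without in both genotypes. These shares are of mRNA per length and not of enzyme or activity.

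**Figure D3:**
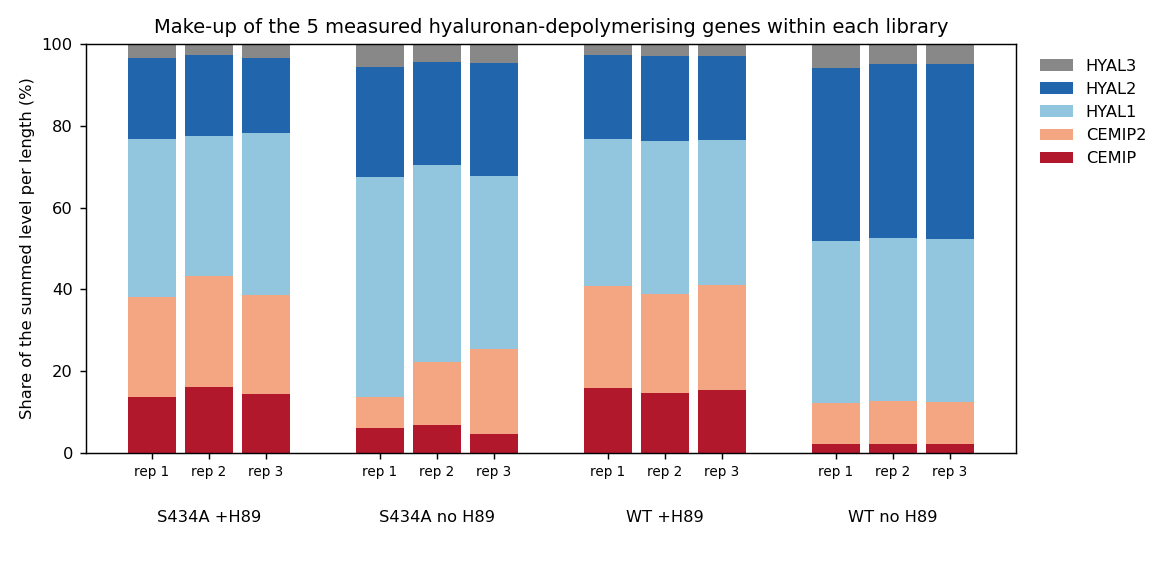
Share (%) of each of the 5 depolymerase genes in their summed TPM, 1 stacked bar per library, which fills 100%. CEMIP is 13.7 to 16.2% of the sum with H89 in S434A and 14.7 to 15.97% in WT, against 2.24 to 2.25% in WT without H89, where HYAL2 is 42.1 to 42.8%.

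Of 52 genes listed for the hyaluronan pathway, the 8 members included, 31 were tested. With H89, 7 rose and 12 fell in S434A cells, beside 29.3% and 22.7% of all genes, and their median was -0.0029 (log2) beside 0.014. CEMIP is counted among those that rose, although its H89 effect chose the gene. Of the 24 tested that are no members, 4 rose and 10 fell. Trend-removed, 4 of the 31 rose, CEMIP included, and 13 fell there. In WT cells 8 of the 31 rose, again with CEMIP, and 12 fell, beside 38.8% and 30.9% of all genes, and their median was -0.16 beside 0.20. Of the 24 that are no members, 3 rose and 10 fell there. Trend-removed, 9 of the 31 rose, CEMIP included, and 14 fell. Without H89, 8 were higher and 12 lower in S434A than in WT, beside 29% and 29.3% of all genes, with a median of -0.20 beside -0.04. Trend-removed, 11 were higher and 11 lower, with a median of -0.039. The shares of all genes above are as counted. Trend-removed, 6276 of 14435 genes passed in either direction for H89 in S434A, 10644 for H89 in WT and 8665 without H89. Fitting only the groups compared gave 2 that rose and 6 that fell for H89 in S434A, and 4 that were lower in S434A without H89. In those fits 2743 of 13787 genes passed in either direction for H89 in S434A, and 6971 of 13893 without H89. Over fits without 1 library, the number that rose in S434A ran from 3 (without replicate 2 of S434A with H89) to 13 (without replicate 3 of S434A), and the number that rose in WT was 5 without replicate 1 or 3 of WT with H89. Over all genes, 5800 of 14690 and 9677 of 14693 passed in either direction for H89 in S434A in these fits. For H89 in WT, 9203 of 14694 and 9151 of 14695 passed. Among the 12 tested genes listed for UDP-sugar supply, 4 rose and 2 fell with H89 in S434A cells (1 rose and 6 fell trend-removed). In WT cells 2 of them rose and 6 fell (2 rose and 8 fell trend-removed). The shares of all genes as counted are those given above. This list also holds UXS1, which uses up UDP-glucuronic acid, so its counts give no direction of supply. PGM1, a phosphoglucomutase upstream of UDP-glucose, fell by 0.39 in S434A (0.28 trend-removed) and by 0.69 in WT (SE 0.0679, adjusted p = 5.13e-06). UXS1, which turns UDP-glucuronic acid into UDP-xylose, had -0.019 in S434A (-0.24 trend-removed, adjusted p = 0.00198) and fell by 0.70 in WT (SE 0.0707). Of N-acetylglucosamine metabolism, NAGK fell by 0.35 in S434A (0.28 trend-removed) and by 0.62 in WT, and AMDHD2 had -0.18 in S434A (0.069 trend-removed) and fell by 0.66 in WT. GFPT1, named here after its values were seen, was the 1 non-member of this list that rose in WT as counted. Its log2 fold change there was 0.92 (adjusted p = 0.000898), and 0.15 trend-removed (adjusted p = 0.644). In S434A it was 0.70 (adjusted p = 0.00891), and -0.91 trend-removed (adjusted p = 0.0236). Without H89, 0 of the 12 were higher in S434A and 9 were lower (2 and 7 trend-removed), beside 29% and 29.3% of all genes as counted.

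HEXA, the alpha subunit of lysosomal beta-hexosaminidase, fell with H89 by 0.43 in S434A (SE 0.0713, adjusted p = 0.0011; 0.56 trend-removed) and by 0.96 in WT (SE 0.0714, adjusted p = 5.04e-07), and was the 1 of the 3 exoglycosidase genes that fell in WT. Of 8 receptor genes 3 were tested. CD44, the main hyaluronan receptor of many cells, had 0 to 3 counts and LYVE1 1 to 10. HMMR, a hyaluronan-binding protein of the spindle, had log2 fold changes of 1.21 in S434A (0.15 trend-removed) and -0.16 in WT, neither past the threshold. STAB1, a scavenger receptor, had only 11 to 32 counts per library. It fell by 0.85 in S434A (adjusted p = 0.0344; -0.62 trend-removed, adjusted p = 0.0775) and had 0.61 in WT (adjusted p = 0.0939). Of 16 binding-protein genes 7 were tested, of which 1 rose and 5 fell with H89 in S434A, as counted and trend-removed. The shares of all genes as counted were 29.3% and 22.7%. In WT cells 2 of the 7 rose and 3 fell (3 and 4 trend-removed), beside 38.8% and 30.9% of all genes as counted.

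AMBP, ITIH1 and ITIH3 fell in both genotypes. They encode parts of the inter-alpha-inhibitor family, serum complexes of liver whose heavy chains are transferred to hyaluronan, and not of a single complex. ITIH2, whose heavy chain shares the inter-alpha-inhibitor itself with that of ITIH1, did not pass the threshold as counted. It is named here after its values were seen. ITIH2 averaged 2022 CPM in S434A with H89 and 2026 CPM in S434A, and 2043 CPM in WT with H89 and 1789 CPM in WT. Its log2 fold change was -0.0029 in S434A (adjusted p = 0.982; -0.18 trend-removed, adjusted p = 0.0181) and 0.19 in WT (adjusted p = 0.0849; 0.47 trend-removed, adjusted p = 2.88e-06). AMBP, the gene of the family's light chain bikunin, averaged 2645 CPM in S434A with H89 and 4322 CPM in S434A, and 2623 CPM in WT with H89 and 7971 CPM in WT. Its log2 fold change with H89 was -0.71 in S434A (SE 0.0517, adjusted p = 1.13e-05; -0.31 trend-removed) and -1.60 in WT (SE 0.0527, adjusted p = 4.42e-09; -0.96 trend-removed). The heavy chain gene ITIH1 fell by 1.36 in S434A (1.09 trend-removed) and by 1.40 in WT, and ITIH3 fell by 1.43 in S434A (1.23 trend-removed) and by 0.93 in WT. The summed level of the hepatocyte markers, given above, was likewise lower with H89 in WT cells, and its part was not tested. VCAN, the hyaluronan-binding proteoglycan versican, rose in both genotypes. It had 5.57, 6.87 and 6.93 CPM in S434A with H89 and 0.431, 1.496 and 2.49 CPM in S434A, and 6.08, 5.23 and 6.17 CPM in WT with H89 and 0.675, 0.737 and 0.778 CPM in WT. Its log2 fold change was 2.12 in S434A (SE 0.363, adjusted p = 0.00123; 1.07 trend-removed) and 2.99 in WT (SE 0.383, adjusted p = 3.90e-05; 1.86 trend-removed).

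**Figure D4:**
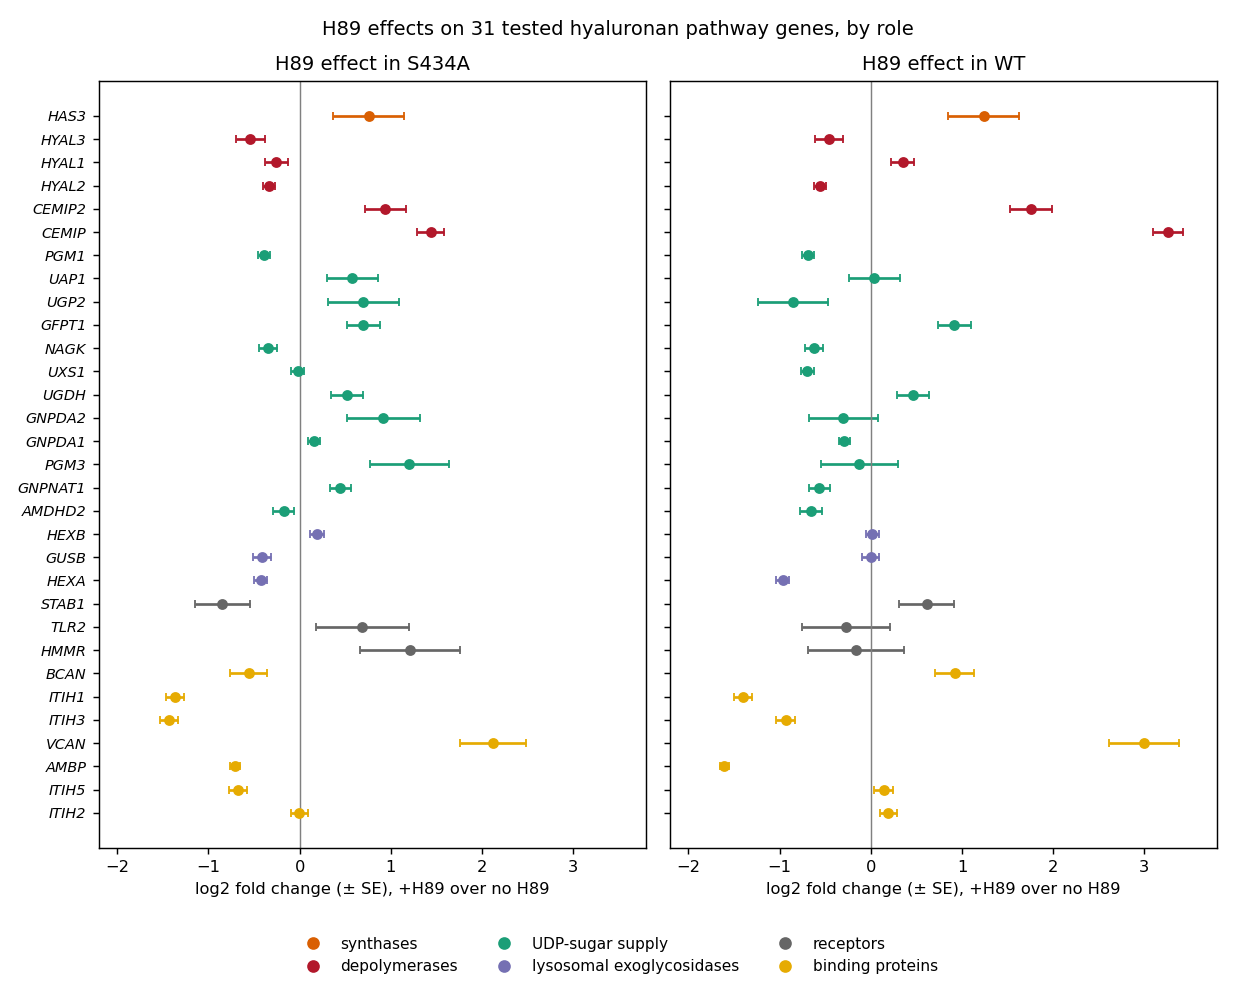
log2 fold change with H89 of the 31 tested hyaluronan pathway genes, grouped and coloured by role, with points for estimates and bars for SE, S434A in the left panel and WT in the right. CEMIP (1.44 in S434A, 3.26 in WT) and VCAN (2.12 in S434A, 2.99 in WT) are the 2 highest in both panels, and the lowest are ITIH3 in S434A (-1.43) and AMBP in WT (-1.60).

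The genes whose log2 CPM followed CEMIP most closely over the 12 libraries were SEMA6A (Pearson r = 0.996), MGAT5 (0.996), MFHAS1 (0.996), KCNJ10 (0.996) and FST (0.995), among 11529 candidates of which 452 had r of at least 0.95. SEMA6A averaged 37.7 CPM in S434A with H89, 17.4 CPM in S434A, 40.7 CPM in WT with H89 and 7.23 CPM in WT, the same order as CEMIP. MGAT5, a Golgi N-acetylglucosaminyltransferase, averaged 259 CPM in S434A with H89, 163 CPM in S434A, 265 CPM in WT with H89 and 82.6 CPM in WT. Of the members, r with CEMIP was 0.909 for CEMIP2, 0.783 for HAS3, 0.519 for UGDH, 0.518 for HYAL1, -0.57 for HYAL3 and -0.94 for HYAL2. These correlations describe 12 libraries that share their 4 groups and carry no test, and 0 of the 5 named genes stayed among the 5 closest by Spearman's rho.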

How the data were processed

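The authors deposited a table of counts, in whole read pairs for each gene. Per the file headers, featureCounts 2.0.1 counted pairs over the exons of each gene identifier. Per the submitters' processing notes, Bowtie 0.12.2 aligned the reads to hg19. Trimming, library kit and strandedness are not stated there. The members and lists were chosen with earlier results of these data known.

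The main test was edgeR 4.0.16 (R 4.3.3, limma 3.58.1): TMM factors, genes kept by filterByExpr (at least 10 counts, by group), and quasi-likelihood F tests with the robust option in a single model of 12 libraries and 4 group means, without a replicate block. Benjamini-Hochberg adjustment covered 14435 genes. Called means over 2-fold with an adjusted p under 0.05, the thresholds of the series design, and "rose" or "fell" needs only the adjusted p. CPM are TMM-scaled, and TPM were computed here from the counts and the deposited exon lengths, so a difference in TPM between groups also moves with the rest of the library. The trend-removed fit used an offset per library from splines with 5 degrees of freedom on GC content and length (14280 genes with a GC value, from GENCODE transcripts of another build, matched by identifier). Results were also computed with DESeq2 1.42.0, limma-voom, RLE or upper-quartile scaling, other filters, only the groups compared, a replicate block and leaving out each library. The TPM scale was added after seeing the data. The 3 libraries of a group are biological replicates by the series text. In the main fit, p-values rest on a spread estimated for each gene over all 12 libraries, not over the groups compared alone. Fitting only the groups compared, which also redid filter and scaling, moved the SE of CEMIP2 without H89 from 0.223 to 0.291. Genes past the threshold went from 7504 to 2743 for H89 in S434A, and from 10065 to 11595 for H89 in WT. Named pathway genes were up to 4 per list with the smallest p among those past the threshold for H89 in WT, or, where none passed (receptors), up to 2 with the highest mean level. Genes like CEMIP were the 5 with the highest Pearson r among genes with a mean of at least 2 CPM in a group. Promoter windows are from RefSeq (GRCh38.p14), matched for 7 of the 8 members. The main edgeR fit was tested on simulated counts that held no GC or length trend. The trend-removed fit was not tested in this way.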

Additional observations from a re-analysis of the deposited data

Results flagged for a closer look

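HYAL1, the lysosomal hyaluronidase gene, was set apart because its response to H89 differed between S434A and WT cells by a test of the difference itself: -0.61 on the log2 scale (SE 0.177, adjusted p = 0.0155, edgeR). Its mean was 120.6 CPM in S434A with H89 and 144 CPM in S434A, and 117.9 CPM in WT with H89 and 92.4 CPM in WT. Without replicate 2 of S434A with H89 the difference was -0.52 (adjusted p = 0.0511), and over the 12 fits that leave out 1 library it ran from -0.75 to -0.46. It was past the threshold for 48% of all genes tested.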

How the results depend on the processing

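Over all genes, the calls between S434A and WT without H89 numbered 3312 as counted, 1640 trend-removed and 1635 with a replicate block and the trend removed. For H89 in S434A they numbered 2540, 832 with only the groups compared, 782 trend-removed, 788 with block and trend removal, and 1582 to 3504 over the 12 fits without 1 library (1635 without replicate 2 of S434A with H89 and 1582 without replicate 1 of S434A). For the difference of H89 effects they numbered 3491, 1889 trend-removed and 1856 with block and trend removal. With H89, S434A against WT gave 0 by edgeR and 1 by DESeq2. Without H89, fitting only the groups compared gave 2397 calls higher and 921 lower in S434A, against 1677 and 1635. RLE factors gave 2579 higher and 2713 lower with H89 in WT, against 3201 and 2285, and moved the median gene there to 0.05, against 0.20. Whether the numbers of the replicates pair the libraries was not settled here. Of 18 same-numbered pairs 4 deviated together with r over 0.1 (range -0.15 to 0.47), and 7 of 12 libraries correlated best with their own number. The replicate block alone gave 3345, 5454, 2679, 0 and 3488 calls for S434A against WT without H89, H89 in WT, H89 in S434A, S434A against WT with H89, and the difference.

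Of the members' log2 fold changes under alternatives, 28 changed sign, whatever their p. Among those that kept their sign, 55 fell below the threshold, 25 newly passed it and 659 kept their result. A further 18 that carry no test moved in size. UGDH without H89 became 0.014 with only the groups compared, 0.38 trend-removed with or without the block and 0.26 on the TPM scale, and ran from -0.38 to 0.022 over the fits without 1 library (the highest without replicate 1 of S434A). HAS3 there ran from -0.26 (without that library) to 0.76, and HYAL2 became 0.11 on the TPM scale. With H89 in WT, HYAL3 became 0.0047 with block and trend removal and 0.10 on the TPM scale, and HYAL2 0.0060 on the TPM scale. On that scale the median gene itself stood at 0.40 without H89 and 0.76 for H89 in WT, and relative to it HYAL2 was at -0.30 and -0.75. With H89 in S434A, HYAL1 became 0.10 (0.11 with the block) and UGDH -0.062 (-0.063) trend-removed. For S434A against WT with H89, CEMIP2 became -0.013 trend-removed with or without the block. Over the fits without 1 library CEMIP2 ran from -0.045 to 0.036, HYAL1 from -0.016 to 0.093 and HAS3 from -0.15 to 0.14, and HAS3 was 0.00078 trend-removed. For the difference, UGDH became -0.58 trend-removed with or without the block, and over the fits without 1 library UGDH ran from -0.17 to 0.24, HYAL3 from -0.18 to 0.097 and HAS3 from -0.78 to 0.24, each with the sign change without replicate 1 of S434A (HYAL3 also without replicate 2 of S434A with H89). In WT, the rises of HYAL1 and UGDH with H89, both under 2-fold, each missed the adjusted p threshold in 10 of 12 fits without 1 library. The cause was not tested. HAS3 had 3 to 16 counts a library.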
